A study of Mus musculus with 5 samples.

Results

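The levels of 10 regulators of the cell cycle were followed in single mouse embryos with and without conditional deletion of Oct4: the D-type cyclins Ccnd1, Ccnd2 and Ccnd3, the cyclins Ccne1, Ccna2 and Ccnb1, the kinase Cdk6, the inhibitors Cdkn1b and Cdkn2a, and the kinase Pim1. They were chosen by name, with earlier results of these data known, and make up 10 of the 49671 genes in the count table. The expression filter kept 9 of them among the 12067 genes tested, and Cdkn2a was too low in every embryo to be tested. Each library came from the epiblast and visceral endoderm (VE) of a single embryo at E6.75, of mixed strain background, after the extraembryonic ectoderm (ExE) had been removed. The 2 SO+ embryos, the controls, had the genotype Sox2Cre-/-; Oct4 fl/+, with no Cre, a floxed and an intact Oct4 allele. The 3 SO- embryos, the mutants, had the genotype Sox2Cre+/-; Oct4 fl/-, with a floxed allele that Cre can delete and a null allele. All 5 therefore carried a floxed allele. The Cre was driven by the Sox2 promoter, which is active mainly in the epiblast, so the VE of an SO- embryo is not the tissue this Cre targets.

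Cyclins are the regulatory subunits of cyclin-dependent kinases (CDKs). D-type cyclins pair with CDK4 and CDK6 and, together with cyclin E and CDK2, phosphorylate the retinoblastoma proteins in G1, which frees the E2F factors that drive S-phase genes. Cyclin A acts through S phase and G2, cyclin B with CDK1 brings cells into mitosis, and inhibitors of the Cip/Kip and INK4 families restrain the kinases. The epiblast of the gastrulating mouse embryo is known for very short cell cycles, and pluripotent mouse cells are known for weak G1 control.

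Total counts were 27538119 and 27047148 in the SO+ embryos but between 1117566 and 4191498 in the SO- embryos, so a gene with 3 counts stood at 0.109 to 0.111 CPM in the former and at 0.723 to 2.68 CPM in the latter. CPM here is the count per 1e6 counts of the tested genes after TMM scaling. Depth, and the second sequencing index, differed between all SO+ and all SO- libraries and cannot be told apart from genotype. Pou5f1, which encodes Oct4, was between 437 and 919.5 CPM in SO+ and between 12.5 and 44.1 CPM in SO- embryos. Markers of the labelled tissues were present. The summed level of 9 epiblast markers, which include Pou5f1 itself, was 5259 to 6508 CPM in SO+ and 2508 to 3614 CPM in SO- embryos. Most of this sum was Dnmt3b, at 3276 to 3980 CPM in SO+ and 1443 to 2310 CPM in SO- embryos. The SO- mean was lower for 6 of the 9 markers and higher for the other 3, Nanog, Sox2 and Fgf5. The sum of 14 VE markers ranged from 3217 to 3708 CPM and from 3223 to 5099 CPM. SO- embryo 1 (5099) and SO- embryo 2 (5083) lay above the SO+ range, and SO- embryo 3 (3223) lay within it. For 13 of these 14 markers the log2 fold change was above 0, with a median of 0.41. Only 2 of them were higher in every SO- embryo than in both SO+ embryos. The sum of 8 ExE markers, 6 of them with a count in every embryo, ranged from 16.5 to 21.0 CPM and from 28.2 to 48.2 CPM. That difference was carried by Hand1, without which the other 7 summed to between 15.5 and 18.3 CPM and between 16.2 and 24.1 CPM, ranges that overlap. The sum of 10 markers of maternal tissue and blood ranged from 1.38 to 4.90 CPM and from 2.68 to 4.58 CPM, with 6 at 0 in all embryos (Prl8a2, Ptprc, Hbb-bs, Hbb-bt, Hba-a2 and Tyrobp). The most abundant markers of the 4 lists were Dnmt3b, Apoa1, Hand1 and Dcn. Of these lists the de novo DNA methyltransferase gene Dnmt3b, the chromatin factor gene Utf1 and Pou5f1 fell, and the endoderm factor gene Sox17 and the trophoblast and mesoderm factor gene Hand1 rose. What these shifts contribute to the values below was not tested, and in such bulk samples fewer cells of a type and less RNA per cell cannot be told apart.

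Promoters are shown for a cyclin gene and a kinase gene that changed, Ccne1 and Pim1, and for a mitotic cyclin gene that did not pass the test, Ccnb1. Each is the 250 bases before the RefSeq transcription start on GRCm38.p6, written in the direction of transcription, with capitals marking GC boxes (GGGCGG on either strand) and CCAAT boxes (CCAAT on either strand). The Ccne1 window is chr7:38107491-38107740 on the minus strand, the Pim1 window, of the more upstream of its 2 starts, chr17:29490535-29490784 on the plus strand, and the Ccnb1 window chr13:100786487-100786736 on the minus strand.
Ccne1: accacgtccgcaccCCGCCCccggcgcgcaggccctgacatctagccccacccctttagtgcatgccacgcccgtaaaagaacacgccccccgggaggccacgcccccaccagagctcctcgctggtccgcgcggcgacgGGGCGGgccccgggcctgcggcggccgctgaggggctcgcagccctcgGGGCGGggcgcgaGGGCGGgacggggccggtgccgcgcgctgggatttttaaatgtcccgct
Pim1: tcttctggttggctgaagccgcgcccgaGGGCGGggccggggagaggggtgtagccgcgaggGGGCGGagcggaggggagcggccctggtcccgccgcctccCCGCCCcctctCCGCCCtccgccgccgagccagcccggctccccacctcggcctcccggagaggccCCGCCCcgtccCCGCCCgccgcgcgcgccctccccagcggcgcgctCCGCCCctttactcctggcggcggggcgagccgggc
Ccnb1: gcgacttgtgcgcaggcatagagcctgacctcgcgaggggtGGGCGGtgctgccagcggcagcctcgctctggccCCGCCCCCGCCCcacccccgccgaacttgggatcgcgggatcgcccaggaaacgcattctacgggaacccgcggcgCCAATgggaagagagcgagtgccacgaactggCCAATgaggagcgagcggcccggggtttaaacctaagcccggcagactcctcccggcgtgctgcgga
The Ccne1 window held 4 GC boxes, that of Pim1 7, and that of Ccnb1 3 GC boxes, with 2 of them side by side, and 2 CCAAT boxes. A GC box was found in 32.7% and a CCAAT box in 33.8% of 32851 promoters of the same length. The E2F site (TTTCCCGC, TTTCGCGC, TTTGCCGC or TTTGGCGC, in 1.86% of promoters), the CHR element TTTGAA (16%), the octamer ATTTGCAT (1.6%) and the STAT site TTCNNNGAA (7.02%) were searched on both strands too. None of them was found in these 3 windows, which says only that these letters are not there. Sequences were found for 7 of the 10 genes, and among their 10 promoters an E2F site was found once, at Cdkn2a, a CHR element once, at the second Pim1 start, and no octamer or STAT site.

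Pim1 rose, Ccnd1 and Ccne1 fell, and the other 6 tested genes did not pass the test. The 3 calls among 9 genes stand beside 2.35% called among all genes tested, the 1 rise beside 1.42% and the 2 falls beside 0.928%. Because the genes were chosen with earlier results of these data known, these shares cannot show that they changed more often than other genes. The same holds for the shares without overlap given below. The median log2 fold change of SO- over SO+ was −0.14 for the 9 genes and −0.00187 for all genes, with 4 values above and 5 below 0. In 7 of the 9 genes no SO+ embryo overlapped with an SO- embryo, 2 being higher and 5 lower in SO-, while 29.3% of all genes tested were without overlap, 14.2% higher and 15.1% lower. The summed epiblast markers were lower in SO- embryos, as were Ccnd1 and Ccne1. Within the SO+ pair the embryo with the lower sum had the lower Ccnd1 level and the higher Ccne1 level. Among SO- embryos Ccne1 followed the order of the sum and Ccnd1 did not. The part of the marker shifts in these results was not tested. All adjusted p values are from edgeR's quasi-likelihood test with Benjamini-Hochberg adjustment over all genes tested.

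**Figure D1:**
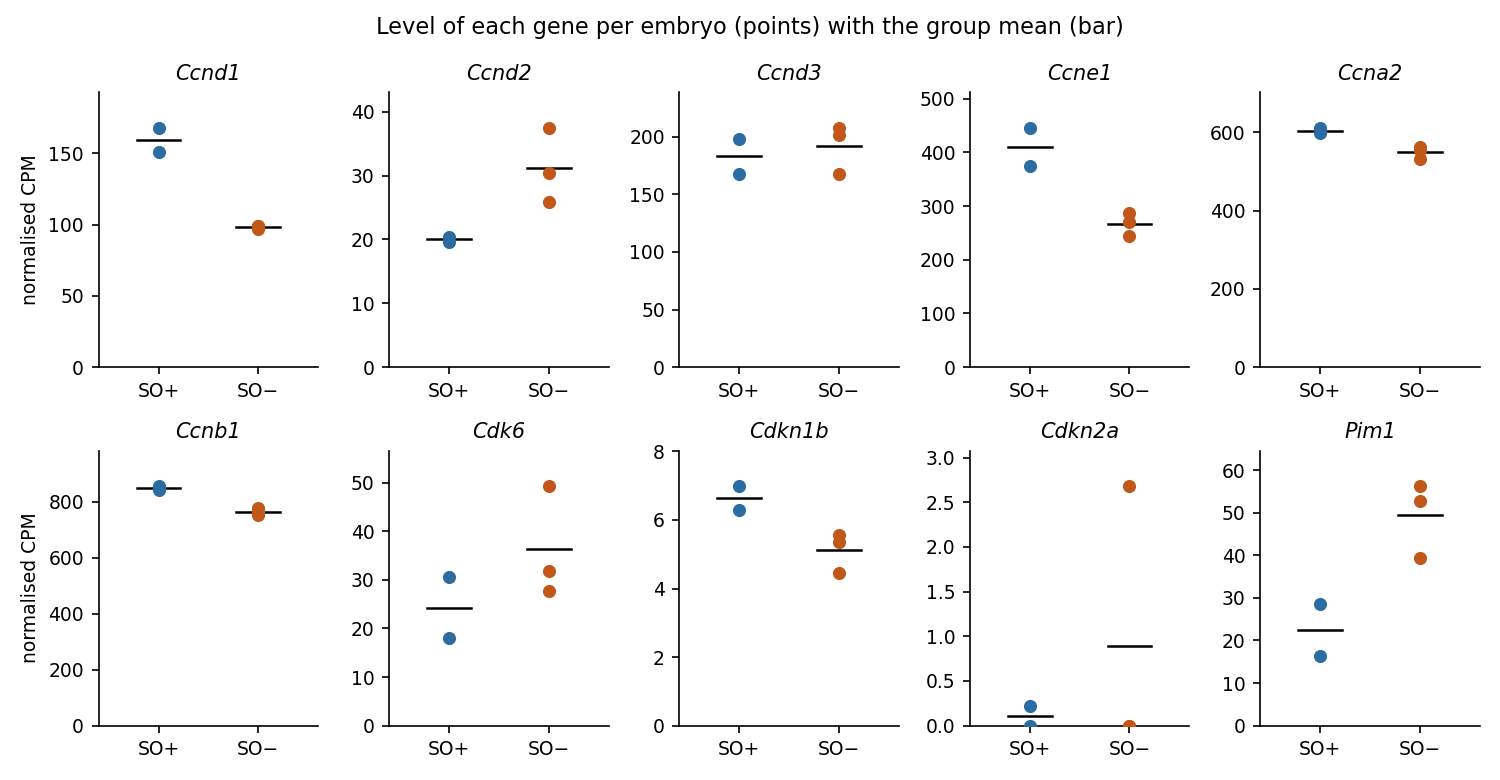
Level of each of the 10 genes in each embryo, in TMM-scaled CPM on linear axes that start at 0 and differ between panels, with points for the 2 SO+ and 3 SO- embryos and bars for the group means. The SO- points of Ccnd1 and Ccne1 lie below the SO+ points, those of Pim1 lie above them, and those of Ccnd3 and Cdk6 overlap with them.

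Cyclin D1, encoded by Ccnd1, is the D-type cyclin whose transcription follows growth factor signals in many cells. Ccnd1 (ENSMUSG00000070348) is located at 144929931 to 144939925 of chromosome 7 (GRCm38). Its level was 168 and 151 CPM in SO+ embryos 1 and 2, and 97.2, 99.1 and 99.1 CPM in SO- embryos 1, 2 and 3. The SO- embryos were all below both SO+ embryos and lay close together although their libraries differed in depth, with 399, 111 and 411 counts. Counting error alone allows 81.5 to 119 CPM in SO- embryo 2 (exact Poisson 95% interval), a wider range than the SO- embryos spanned. The mean was 159 ± 12.0 CPM (SD, n = 2) in controls and 98.5 ± 1.09 CPM (SD, n = 3) in mutants. Ccnd1 thus fell 1.62-fold (log2 fold change −0.70, SE 0.12, 95% interval −0.95 to −0.44, adjusted p = 0.00754 from edgeR). Without SO- embryo 1 or SO- embryo 2 the log2 fold change was −0.70 in both cases, but the adjusted p from edgeR was 0.107 and 0.0997. With those embryos left out edgeR called 46 and 35 genes in all, against 283 with every embryo. On the opposite strand, Oraov1 covers 1100 of the 4709 exon bases of Ccnd1 (23.4%), and whether the counting used strand is not given in the sources used here. Oraov1 itself was between 12.5 and 16.1 CPM in all 5 embryos, with a log2 fold change of −0.03 (adjusted p = 0.986 from edgeR).

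Ccnd2, on chromosome 6 from 127125162 to 127152193, had levels of 19.7 and 20.4 CPM in controls against 30.5, 37.5 and 25.8 CPM in SO- embryos 1, 2 and 3. All SO- values were above both SO+ values, and the highest was the shallowest library, with 42 counts. The means were 20.0 ± 0.50 CPM (SD, n = 2) and 31.2 ± 5.88 CPM (SD, n = 3), but the log2 fold change of 0.60 (SE 0.22, 95% interval 0.13 to 1.08) did not pass over all genes (adjusted p = 0.221 from edgeR). Ccnd3, on chromosome 17 from 47505051 to 47599691, was 198 and 168 CPM in SO+ and 208, 168 and 201 CPM in SO- embryos. Its groups overlapped, with a log2 fold change of 0.08 (95% interval −0.19 to 0.36, adjusted p = 0.865 from edgeR), so a change of the size seen in Ccnd1 lies outside its interval.

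The make-up of the D-type cyclin transcripts was set side by side per length, as CPM per kb of exon sequence. Ccnd1 made up 59.1% and 60.1% of the summed level per kb in SO+ embryos, and 43.4%, 47.7% and 45.0% in their SO- counterparts. Ccnd3 made up 37.4% and 35.9% against 49.8%, 43.3% and 49.1%, and Ccnd2 3.47% and 4.06% against 6.81%, 9.03% and 5.87%. Ccnd1 was thus the largest of the 3 in both SO+ embryos and in SO- embryo 2, and Ccnd3 in SO- embryos 1 and 3. This order rests on the division by exon length, since in CPM Ccnd3 was above Ccnd1 in all 5 embryos. The length used is that of all annotated exons of a gene, 8775 bases for Ccnd3 and 4709 for Ccnd1. Their longest coding transcripts have 2113 and 3740 bases, so Ccnd3 in particular is set low by this division, and the order per transcript was not established. The difference in share did not turn, being −14.2 percentage points for Ccnd1 per kb and −13.4 without the division. For each of the 3 shares the genotypes did not overlap, and the exact permutation test, two-sided, gave p = 0.1, the smallest that 2 embryos against 3 allow (0.129 after Benjamini-Hochberg adjustment over the 9 sums, shares and ratios tested in this way). The 3 genes summed to 386 and 339 CPM in SO+ and 335, 304 and 326 CPM in SO- embryos (exact permutation test, p = 0.1). The sum was lower in every SO- embryo, but the difference of −40.5 CPM was −17.1 CPM without SO+ embryo 1 (exact permutation test, p = 0.5) and −63.8 CPM without SO+ embryo 2, with SO+ embryo 2 and SO- embryo 1 the nearest across genotypes.

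**Figure D2:**
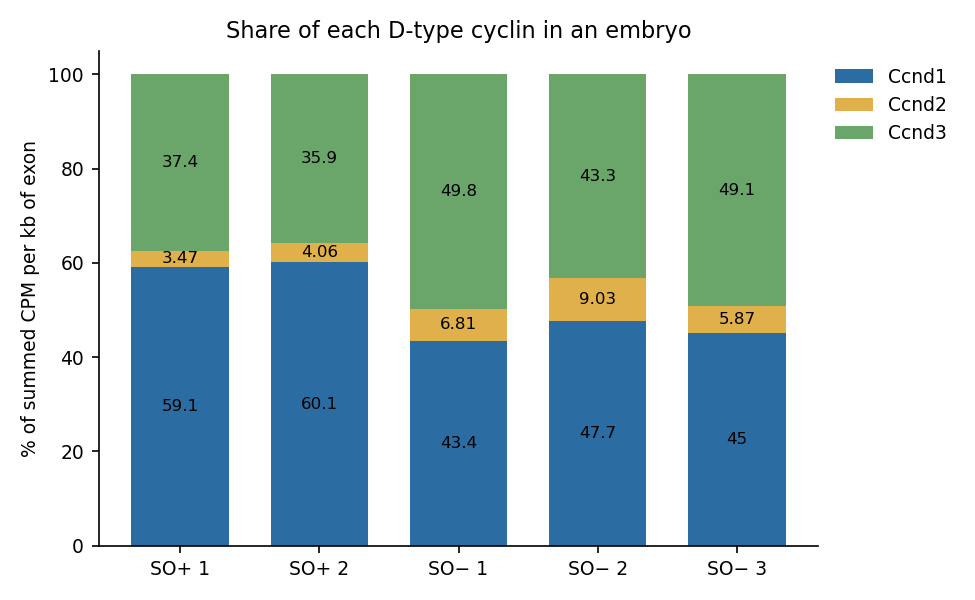
Share of Ccnd1, Ccnd2 and Ccnd3 in the summed level of the D-type cyclins, in percent of CPM per kb of exon sequence, as a stacked bar for each of the 5 embryos. The Ccnd1 share is 59.1% to 60.1% in the SO+ embryos and 43.4% to 47.7% in the SO- embryos.

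Cyclin E1, encoded by Ccne1, binds CDK2 at the entry into S phase. Ccne1 lies on chromosome 7 from 38097984 to 38107534, and its promoter with the 4 GC boxes is shown above. It was 374 and 445 CPM in SO+ embryos 1 and 2, and 269, 245 and 286 CPM in SO- embryos 1, 2 and 3. Every SO- embryo was below both SO+ embryos. Ccne1 had a mean of 410 ± 50.2 CPM (SD, n = 2) in SO+ and fell to 0.654 of that level, 267 ± 21.1 CPM (SD, n = 3), in SO- embryos (log2 fold change −0.61, SE 0.11, 95% interval −0.86 to −0.37, adjusted p = 0.0123 from edgeR). The adjusted p from edgeR was 0.159 without SO- embryo 1 and 0.164 without SO- embryo 2, at log2 fold changes of −0.63 and −0.56, and that from limma-voom was 0.0777 with all embryos.

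The cyclins of S phase, G2 and mitosis were the most abundant of the 10 genes and differed least between embryos. Ccna2, on chromosome 3 from 36564865 to 36572150, was 598 and 612 CPM in SO+ and 562, 531 and 556 CPM in SO- embryos. Ccnb1, on chromosome 13 from 100778650 to 100786570, was 841 and 855 CPM in SO+ and 777, 752 and 763 CPM in SO- embryos. Both were lower in every SO- embryo, but the log2 fold changes of −0.14 (SE 0.092, 95% interval −0.34 to 0.06) and −0.15 (SE 0.088, 95% interval −0.34 to 0.04) did not pass the test (adjusted p = 0.593 and 0.507 from edgeR). Per kb the ratio of Ccnb1 to Ccna2 was 1.36 and 1.35 in SO+ and 1.34, 1.37 and 1.33 in SO- embryos, so the groups overlapped (exact permutation test, p = 0.5). Per kb the ratio of Ccnb1 to Ccne1 was 1.42 and 1.21 in SO+ and 1.82, 1.94 and 1.68 in SO- embryos, higher in every SO- embryo (exact permutation test, p = 0.1). Reads of Ccnb1 may be divided with near-identical copies, of which Gm5593 matches its transcript at 99.2% identity and Gm12856 at 98.1%. These had at most 193 and 70 counts in an embryo, where Ccnb1 had up to 23180. Exosc9 covers 12.5% of the Ccna2 exon bases on the other strand.

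Cdk6 encodes a catalytic partner of the D-type cyclins. It lies on chromosome 5 from 3341485 to 3531008, and was 18.1 and 30.5 CPM in SO+ embryos 1 and 2 and 49.2, 27.7 and 31.8 CPM in SO- embryos 1, 2 and 3. The groups overlapped, since SO- embryo 2, with 31 counts, was lower than the second SO+ embryo. Its log2 fold change of 0.62 (SE 0.28, 95% interval 0.02 to 1.22) did not pass over all genes (adjusted p = 0.345 from edgeR). It depended on single embryos: it was 1.04 without SO+ embryo 2 (adjusted p = 0.0385 from edgeR), 0.29 without SO+ embryo 1 (adjusted p = 0.879) and 0.30 without SO- embryo 1 (adjusted p = 0.842). Cdk4, the kinase with the same partners, was far higher, at 1183 and 1235 CPM in SO+ and 1188, 1105 and 1297 CPM in SO- embryos, with a log2 fold change of −0.01 (adjusted p = 0.981 from edgeR). Per kb, Cdk4 was 174 to 282 times Cdk6 in SO+ and 104 to 175 times in SO- embryos, which overlapped (exact permutation test, p = 0.2).

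Of the inhibitors, Cdkn1b encodes p27, which binds cyclin E and cyclin A complexes with CDK2. It lies on chromosome 6 from 134920401 to 134925513 and was low, at 6.28 and 6.98 CPM in SO+ and 5.36, 4.46 and 5.55 CPM in SO- embryos. All SO- values were below both SO+ values, but SO- embryo 2 had only 5 counts, and counting error alone allows 1.45 to 10.4 CPM there (exact Poisson 95% interval, which covers counting error only). The log2 fold change was −0.34 (SE 0.41, 95% interval −1.22 to 0.54, adjusted p = 0.809 from edgeR), an interval that includes both no difference and a fall of the size seen in Ccnd1. Cdkn2a, on chromosome 4 from 89274471 to 89294653, encodes the INK4 protein p16 and, in another reading frame, ARF. It had 6 and 0 counts in controls and 0, 3 and 0 counts in mutants, or 0.218, 0, 0, 2.68 and 0 CPM. Its counts were thus at most 3 in any SO- embryo, and a difference was not detectable at this depth.

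Pim1 encodes a serine/threonine kinase known as a target of STAT signalling, with p27 and CDC25A among its substrates. It lies on chromosome 17 from 29490753 to 29496112. It was 28.6 and 16.4 CPM in SO+ embryos 1 and 2, and 52.9, 39.3 and 56.2 CPM in SO- embryos 1, 2 and 3. Every SO- embryo was above both SO+ embryos, while the SO+ embryos differed from each other as well. Pim1 had a mean of 22.5 ± 8.62 CPM (SD, n = 2) in SO+ and rose 2.25-fold to 49.4 ± 8.96 CPM (SD, n = 3) in SO- embryos (log2 fold change 1.17, SE 0.25, 95% interval 0.63 to 1.71, adjusted p = 0.0273 from edgeR). The call was lost when an embryo other than SO+ embryo 1 was left out (adjusted p from edgeR of 0.0503 without SO+ embryo 2, and 0.256, 0.167 and 0.111 without SO- embryos 1, 2 and 3), at log2 fold changes of 0.83 to 1.28, and with limma-voom (adjusted p = 0.132). DESeq2, which called 3.26% of all genes, gave a log2 fold change of 1.16 (adjusted p = 0.00182). Pim1 is 6.02 Mb from Pou5f1, the targeted gene. Of 228 tested genes within 10 Mb of Pou5f1, 6 rose, Pim1 among them (2.63%, beside 1.42% of all genes), and 2 fell (0.877%, beside 0.928%), with a median log2 fold change of 0.00.

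**Figure D3:**
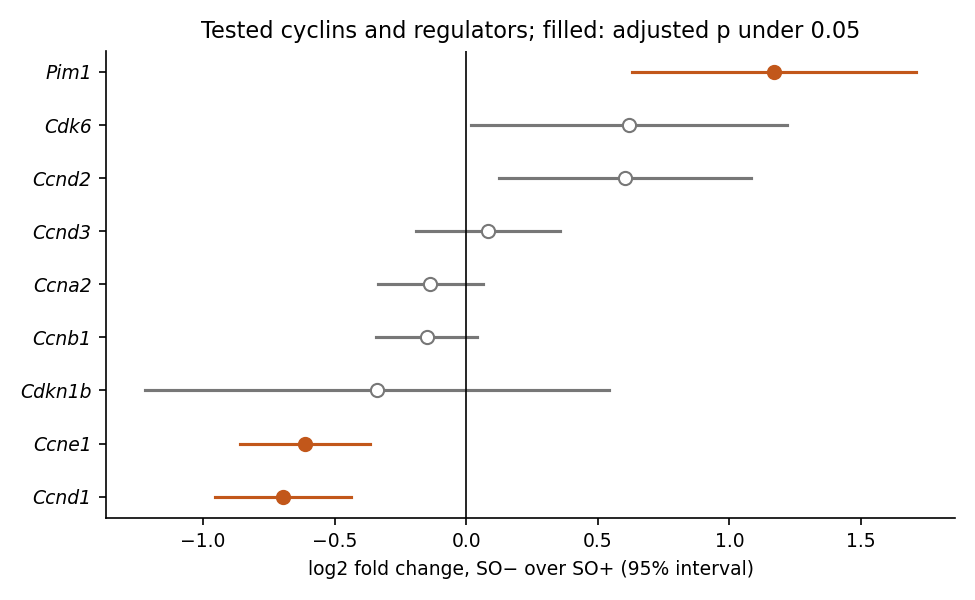
Log2 fold change of SO- over SO+ for the 9 tested genes, with points for the edgeR estimate and bars for its 95% interval, filled where the adjusted p is under 0.05. The intervals of Ccnd1 (−0.95 to −0.44), Ccne1 (−0.86 to −0.37) and Pim1 (0.63 to 1.71) lie away from 0, and that of Ccnd3 spans 0.

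Pim2, the related kinase gene, was much more abundant and went the other way in value. It was 1294 and 1285 CPM in SO+ and 800, 477 and 1080 CPM in SO- embryos, lower in every SO- embryo, with a log2 fold change of −0.70 (SE 0.22) that did not pass the test (adjusted p = 0.143 from edgeR) but did without SO+ embryo 2 or SO- embryo 3. Per kb, Pim2 was 54.5 and 94.4 times Pim1 in controls but 18.2, 14.6 and 23.1 times Pim1 in mutants. The ranges did not overlap (exact permutation test, p = 0.1). This follows from Pim2 being lower and Pim1 higher in every SO- embryo, so the ratio adds no separate result.

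Per kb of exon sequence and averaged over the 5 embryos, the 10 genes fell into an order from Ccnb1 at 189 CPM per kb, through Ccna2 at 140 and Ccne1 at 122, to Ccnd1 at 26.1, Ccnd3 at 21.5, Pim1 at 11.5, Ccnd2 at 2.84, Cdk6 at 2.25, Cdkn1b at 1.26 and Cdkn2a at 0.494 CPM per kb. The embryo ranges of Ccna2 and Ccne1 overlapped, as did those of Ccnd1 and Ccnd3, of Ccnd2 and Cdk6, of Cdk6 and Cdkn1b, and of Cdkn1b and Cdkn2a. The order of the group means differed between genotypes at 2 of these places. In SO+ embryos Ccne1, at a mean of 154 CPM per kb, was above Ccna2 at 148, and in SO- embryos Ccnd3 at 21.9 was above Ccnd1 at 20.9. The former held in SO+ embryo 2 (167 against 150) but not in SO+ embryo 1 (141 against 146). The latter did not hold in SO- embryo 2 (19.1 against 21.0). Ccnb1, Ccna2 and Ccne1 thus stood above the D-type cyclins, and the inhibitors were at the lower end. The places of Ccnd1 and Ccnd3 relative to each other rest on the exon lengths used, like the shares above. So do those of Ccne1 and Ccna2, since in CPM Ccna2 was above Ccne1 in all 5 embryos.

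Among 62 other cell cycle genes, 57 were tested and 1 passed the test, beside 2.35% of all genes, with 25 log2 fold changes above and 32 below 0 and a median of −0.04. Of the 57, 14 were without overlap, 7 in each direction, beside 29.3% of all genes. The gene that passed was Cdkn1c, the Cip/Kip inhibitor p57 that is imprinted and known from differentiating tissues. It was 12.8 and 12.0 CPM in SO+ and 29.7, 32.1 and 20.7 CPM in SO- embryos, all SO- values being higher, with a log2 fold change of 1.12 (SE 0.26, adjusted p = 0.0378 from edgeR). Cdkn1a and Cdkn2d, the other tested inhibitors, did not pass. The number of calls among the 57 genes was 0 with limma-voom and without SO- embryo 1 or SO- embryo 2, so Cdkn1c was not among the calls there. Nor was Cdkn1c called without SO+ embryo 1, a fit that left a single SO+ embryo. After thinning of both SO+ libraries to the average depth of the SO- ones, the median number of calls over 10 draws was 0. That median does not say whether Cdkn1c was called in some of the draws. Without SO+ embryo 2 the calls were Mcm2 and Pim2 and not Cdkn1c, and without SO- embryo 3 they were Cdkn1c and Pim2.

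Among the partners and upstream regulators, none of 4 CDK genes, 6 other cyclin genes, 12 genes of the Rb and E2F families, 6 genes of CDK phosphorylation, 12 of cyclin and inhibitor turnover or 7 mitotic kinase and checkpoint genes passed the test. Their log2 fold changes nevertheless ranged widely in the Rb and E2F list, from −0.86 for Rb1 to 0.86 for E2f2, both at low levels. There the 95% intervals of E2f4 (−0.53 to −0.06), E2f5 (0.10 to 0.74) and E2f8 (−0.78 to −0.01) lay on a single side of 0. In the turnover list Fbxo4, also at a low level, had a log2 fold change of 1.05 (95% interval −0.20 to 2.30). In the mitotic list the 95% interval of Bub1 (−0.58 to −0.05) lay below 0. The most abundant of each list had log2 fold changes near 0: Ccnf, a cyclin-like F-box subunit, 0.08, the E2F partner Tfdp1 −0.13, the CDK1 inhibitory kinase Wee1 −0.04, the activator of the anaphase-promoting complex Cdc20 0.00 and the mitotic kinase Plk1 0.02, with adjusted p values from 0.690 to 0.998 in edgeR. In the Rb and E2F list 9 of 12 values were below 0, with a median of −0.11. Of 5 markers of cycling cells none passed, with 3 below 0 and 2 above. The 2 above, Mki67 and Top2a, were higher in every SO- embryo (log2 fold changes 0.33 and 0.17, adjusted p = 0.189 and 0.463 from edgeR). The 95% interval of Mki67 was 0.09 to 0.58. The most abundant of the 5, the replication helicase gene Mcm2, was 846 and 745 CPM in SO+ and 598, 593 and 671 CPM in SO- embryos. It was lower in every SO- embryo (log2 fold change −0.36, SE 0.10, adjusted p = 0.0980 from edgeR).

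**Figure D4:**
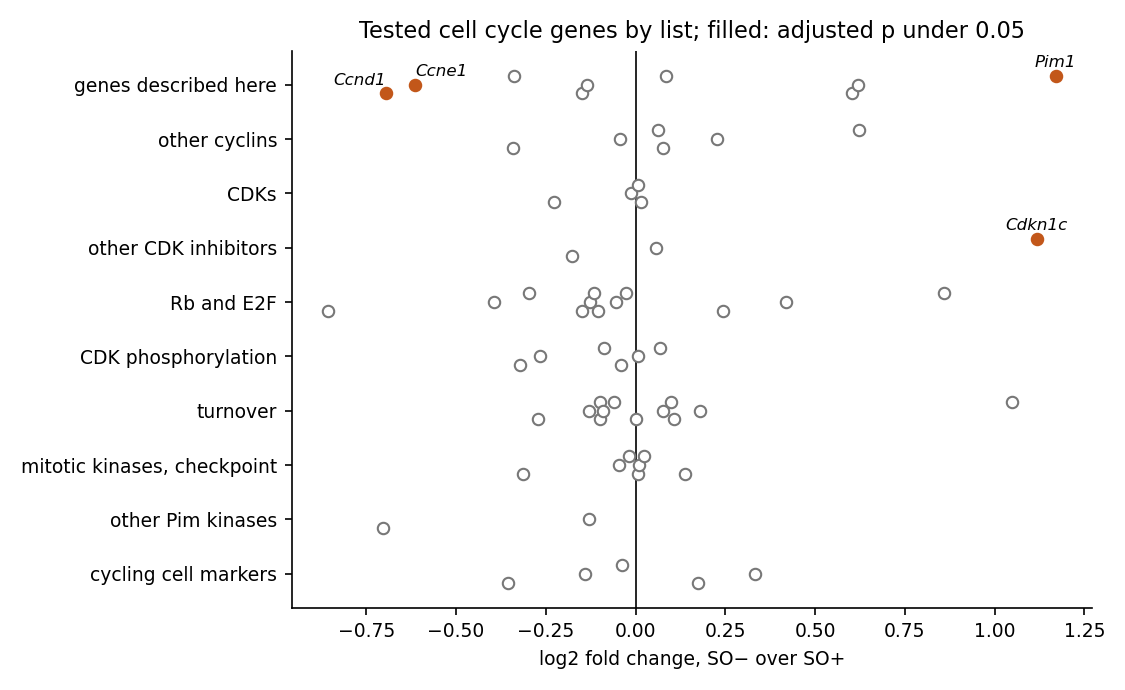
Log2 fold change of SO- over SO+ for each tested gene, by list, with the 9 tested genes described here and the other cell cycle lists as rows and a point for each gene, filled where the adjusted p is under 0.05. Pim1 and Cdkn1c rose and Ccnd1 and Ccne1 fell, and the other points did not pass the test.

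The genes most like Ccnd1 in their profile over the 5 embryos, by Euclidean distance between centred log2 CPM values among 9150 genes, were B4galt4 (0.0654), Gpd2 (0.141) and Adcy3 (0.142). Those nearest to Ccne1 were Tor3a (0.0803), Slc25a25 (0.0971) and Mif4gd (0.113). Those nearest to Pim1 were Spats2l (0.219), Ndst1 (0.399) and Il17rc (0.456), at larger distances than for both cyclins. The log2 fold changes of these genes were between −0.69 and −0.56 for those near the cyclins and between 1.07 and 1.27 for those near Pim1. Values close to that of the gene they resemble follow from the choice by profile over the same embryos. None had an adjusted p under 0.05 in edgeR (0.0533 to 0.373).

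**Figure D5:**
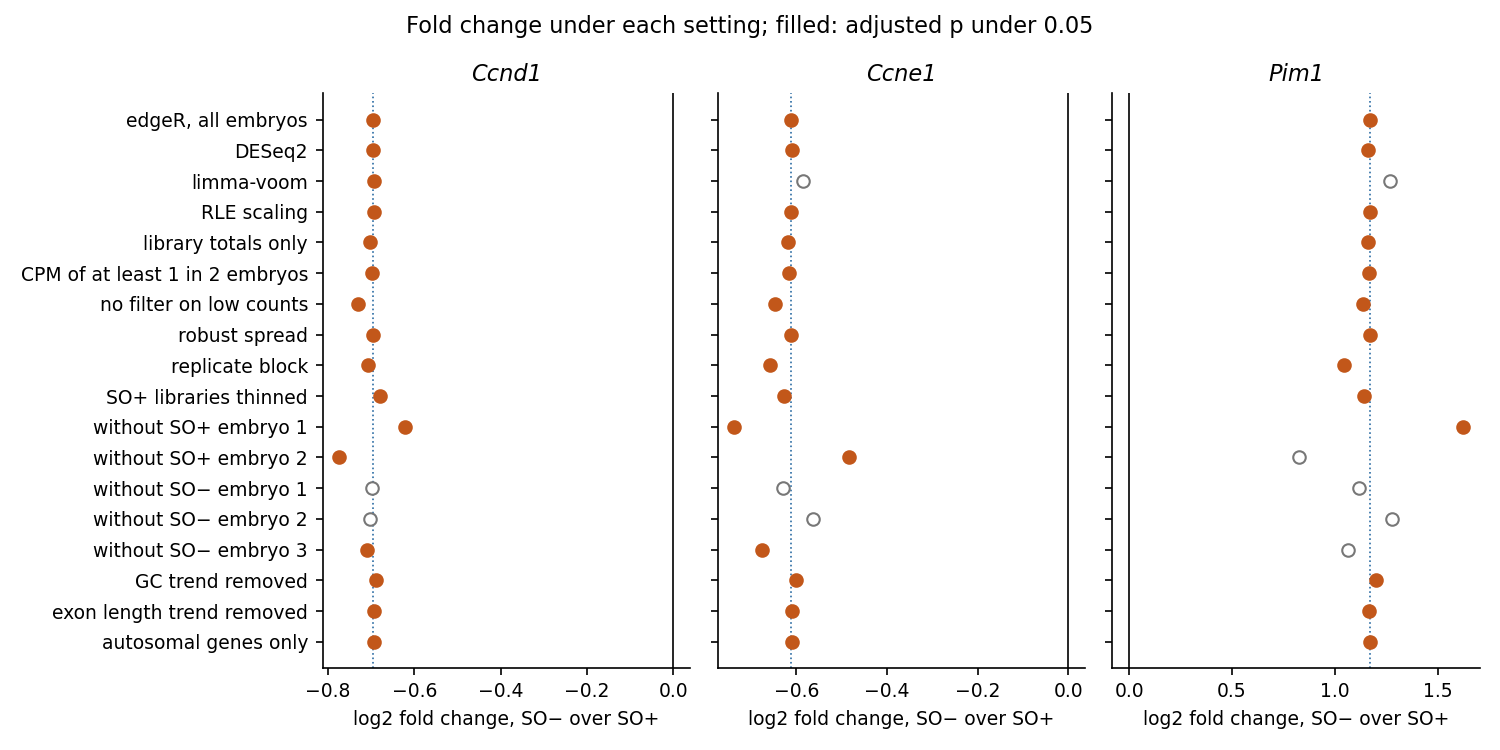
Log2 fold change of SO- over SO+ for Ccnd1, Ccne1 and Pim1 under each processing setting or with an embryo left out, filled where the adjusted p is under 0.05, with a dotted line at the value from all embryos in edgeR. Ccnd1 stays between −0.77 and −0.62, Ccne1 between −0.74 and −0.48 and Pim1 between 0.83 and 1.62, and the open points are mostly those with an SO- embryo left out.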

How the data were processed

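RNA from the epiblast and VE of 2 SO+ and 3 SO- embryos was amplified by SmartSeq2, which adds no molecular identifiers. Reads were aligned with STAR to GRCm38/mm10 and assigned to Ensembl genes with HTSeq by the authors, who deposited whole-number read counts, not normalized, for 49671 genes. Strand use in counting and removal of duplicates are not given in the sources used here. Embryos were grouped by the labels, and each was a separate sample.

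Counts were analysed in R 4.3.3 with edgeR 4.0.16 by its quasi-likelihood F test with genotype as sole term, after filterByExpr and TMM scaling, with Benjamini-Hochberg adjustment and a threshold of 0.05. Standard errors were obtained from the size of the log2 fold change over the root of F. CPM values are counts over the tested-gene total times the TMM factor. Positions and union exon lengths are from GENCODE M21 on GRCm38, which held 99.9% of the tested genes. Copies were transcripts aligned over at least 200 bases at 95% identity or more. Total counts of 1117566 to 27538119 set the precision, and intervals on counts cover counting error only. On simulated counts with these library sizes, edgeR recovered 62 of 108 genes changed by 1 and 75 of 92 changed by 2 on the log2 scale, with 8 false calls among 11740 genes. Smaller changes, such as those of Ccnd1 (−0.70) and Ccne1 (−0.61), were not among these sizes, so recovery at their size is not given.

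The members and lists were chosen with earlier results of these data known. Named were all 10 members, every called gene and the most abundant gene of each other list, and the 3 nearest profiles of each of the 3 called members, among genes whose log2 CPM (prior count 2) averaged 3 or more. Cdkn1a, Cdkn2d, Rb1, E2f2, E2f4, E2f5, E2f8 and genes that overlap or resemble a member were named after their values were seen. So were Nanog, Sox2, Fgf5, Mki67, Top2a, Fbxo4 and Bub1. Alternatives were DESeq2 1.42.0, limma-voom (limma 3.58.1), RLE scaling, library totals, other filters, a robust spread, the replicate number as a block, thinning of the SO+ libraries (10 draws) and each embryo left out. Removal, library by library, of the trend with exon length or GC content and the use of autosomal genes alone, and the ExE sum without Hand1, were chosen after seeing the data.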

Additional observations from a re-analysis of the deposited data

How the results depend on the processing

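Over all genes, edgeR called 283, limma-voom 91, the fit with the replicate block 929, and the fits with an embryo left out between 35 and 573. Of the 10 genes described, limma-voom called 1 (Ccnd1), the fit with the replicate block 4, adding Cdk6 (log2 fold change 0.78, adjusted p = 0.0477 from edgeR), and the fits with an embryo left out 0 to 3, with 0 without SO- embryo 1 or SO- embryo 2. Of the other cell cycle genes, 1 was called, against 0 with limma-voom or thinning, 4 with the replicate block and 0 to 2 with an embryo left out. The labels do not say whether same-numbered embryos shared a litter, and the correlations of deviations between same-numbered embryos were 0.0077 and 0.115 over 2 pairs, so a pairing was not established. Pou5f1 missed the threshold with limma-voom (−4.35, adjusted p = 0.0639) and with a robust spread (−4.43, adjusted p = 0.0988), and was −4.87 to −3.80 with an embryo left out. Ccnd3, at 0.08, was between −0.033 and 0.205 with an embryo left out and turned in sign without SO+ embryo 2 (adjusted p = 0.967 from edgeR). The directions of Ccnd1, Ccne1 and Pim1 were the same in all 17 alternatives, and their calls were lost in 2, 3 and 5 of them. The direction of the D-type sum and shares was the same in all alternatives run, with the sum between −63.8 and −17.1 CPM. The cause of these changes was not tested. Depth limits Cdkn1b and Cdkn2a, with 5 and 3 counts in SO- embryo 2.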
